A study of Homo sapiens with 36 samples.

Results

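The miRNA abundance profiles of HCT116 and RPE1 cells were compared across all 7 deposited tables, which draw on all 36 small RNA libraries of the series. HCT116 cells come from a human colorectal carcinoma and have a modal chromosome number of 45. RPE1 cells come from the pigmented epithelium of the human retina, were immortalised with hTERT, the catalytic subunit of telomerase, and have a modal number of 46. The 4 HCT116 tables are those of HCT116 5/4 (4 copies of chromosome 5), HCT116 18/3 c2 (3 copies of chromosome 18), HCT116* 3/3 c11 (3 copies of chromosome 3) and HCT116* 8/3 c7 (3 copies of chromosome 8). The 3 RPE1 tables are those of RPE1 5/3 12/3 (3 copies each of chromosomes 5 and 12), RPE1* 7/3 (3 copies of chromosome 7) and RPE1* 21/3 (3 copies of chromosome 21). The asterisk marks stable expression of histone H2B tagged with GFP. Each table pools 3 libraries of its line with 3 of its control, which was HCT116 for HCT116 5/4, HCT116* for the other 3 HCT116 lines, RPE1 for RPE1 5/3 12/3 and 2 separate sets of RPE1* libraries for RPE1* 7/3 and RPE1* 21/3. HCT116 18/3 c2 was thus set against a control that carries H2B-GFP although its own label names no such transgene. By the methods of the study, lines with a clone number (c) each grew from a single cell, the gain of chromosome 12 in the RPE1 5/3 12/3 line was spontaneous, and RPE1* 7/3 also gained chromosomes 9 and 12. All 7 tables therefore mix control and aneuploid cells of 1 cell type, which is represented by HCT116 or RPE1 alone. The values are levels of that mixture, in which differences between the aneuploid lines remain. They do not set a line against its control.

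A level is given here in RPM, the deposited mean of a miRNA per 1e+06 reads of the summed means in its table. The summed means were 5556870 to 8945895 normalised reads in the HCT116 tables and 8056234 to 11221232 in the RPE1 tables, and they cover the listed miRNAs only, so they are not library depths. Of 509 names, 333 ended in 5p and 12 in 3p, and the other 164 carried no arm, so the profiles are largely those of 5p arms and most 3p arms were not analysed here. No value of a single library was at hand. The tables of a cell type were therefore used as its replicates in the descriptive sense only, and 3 of the 4 HCT116 tables share the same control libraries. An exact permutation of 4 tables against 3 cannot give a two-sided p below 0.0571, so no test was made, and differences were read against the spread of the tables. In pooled RNA, fewer cells that express a miRNA and less of it per cell cannot be told apart.

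A miRNA is cut from a hairpin transcript and loaded into an Argonaute protein, where bases 2 to 8 from its 5′ end, the seed, pair with target mRNAs and lower their stability and translation. miRNAs with the same seed form a family and can share targets, and many are transcribed together from clusters. The set of miRNAs a cell makes is a mark of its lineage: the miR-200 and miR-183 clusters are known from epithelia, miR-204 from the pigment epithelium of the retina, miR-10 and miR-196 from the HOX gene clusters, and the 14q32 miRNAs from an imprinted locus.

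The miRNAs below carried most of the pool or most of the difference between the cell types. Their mature sequences are those of RefSeq (GRCh38.p14), written 5′ to 3′ with the seed in capitals. An exact name match was found for 416 of the 509 names. The first 3 were abundant in both cell types.
hsa-miR-21-5p: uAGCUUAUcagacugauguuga
hsa-miR-100-5p: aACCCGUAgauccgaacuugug
hsa-let-7i-5p: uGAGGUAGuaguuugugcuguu
The next 7 were higher in HCT116. miR-183-5p, miR-96-5p and miR-182-5p come from 1 cluster and have 3 different seeds.
hsa-miR-10a-5p: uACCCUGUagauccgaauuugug
hsa-miR-7-5p: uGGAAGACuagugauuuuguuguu
hsa-miR-183-5p: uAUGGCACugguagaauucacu
hsa-miR-96-5p: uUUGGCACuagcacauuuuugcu
hsa-miR-182-5p: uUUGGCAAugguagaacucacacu
hsa-miR-9-5p: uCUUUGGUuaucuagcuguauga
hsa-miR-378c: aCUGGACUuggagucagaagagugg
The last 5 show the pattern of RPE1. miR-30e-5p is set beside miR-30a-5p because both share a seed and 21 of 22 bases, while of the pair miR-30a-5p alone was called.
hsa-miR-30a-5p: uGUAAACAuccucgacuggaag
hsa-miR-30e-5p: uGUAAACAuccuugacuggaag
hsa-miR-204-5p: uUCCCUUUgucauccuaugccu
hsa-miR-379-5p: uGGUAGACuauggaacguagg
hsa-miR-411-5p: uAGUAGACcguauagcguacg

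In both cell types, 2 miRNAs made up more than 50% of the pool. miR-21-5p, widely known as an oncogenic miRNA, stood at 459313, 432233, 491514 and 489916 RPM in HCT116 5/4, HCT116 18/3 c2, HCT116* 3/3 c11 and HCT116* 8/3 c7, and at 392626, 333361 and 431308 RPM in RPE1 5/3 12/3, RPE1* 7/3 and RPE1* 21/3. In the same order of tables, which is kept below, miR-100-5p stood at 223644, 266690, 195932 and 205397 RPM in HCT116 and at 375539, 421390 and 299094 RPM in RPE1. The HCT116 and RPE1 values did not overlap for either of them, but the ratios were small, with miR-21-5p 1.22 times higher in HCT116 and miR-100-5p 1.63 times higher in RPE1. The direction for miR-21-5p turned under the other scalings, with a log2 difference of HCT116 minus RPE1 of 0.29 on the RPM scale, -0.03 when these 2 miRNAs were left out of the total and -0.78 under a median of ratios, whereas miR-100-5p stayed higher in RPE1 at -0.71, -1.02 and -1.78. let-7i-5p, a member of the differentiation-associated let-7 family, ranged from 34776 to 43667 RPM in HCT116 and from 72937 to 75438 RPM in RPE1.

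The RPE1 pool was concentrated in fewer miRNAs. The 2 leading miRNAs took 68.3 to 69.9% of the HCT116 tables and 73.0 to 76.8% of the RPE1 tables, and the 10 leading ones took 88.9 to 91.2% and 93.7 to 94.6%. It took 10 to 12 miRNAs to reach 90% of an HCT116 pool and 6 to 7 to reach 90% of an RPE1 pool. The effective number of miRNAs, the exponential of the Shannon entropy of the shares, was 7.40 to 7.97 (median 7.54) in HCT116 and 5.54 to 6.22 (median 5.79) in RPE1, so that the ranges did not overlap. After miR-21-5p and miR-100-5p, the order of HCT116 was miR-10a-5p, let-7i-5p, miR-7-5p, let-7a-5p, let-7f-5p and miR-183-5p, and that of RPE1 was let-7i-5p, miR-30a-5p, let-7a-5p, miR-26a-5p, let-7f-5p and miR-125b-5p. By geometric mean over its tables, neighbours in these orders lay close in places, such as miR-10a-5p at 44139 RPM and let-7i-5p at 38216 RPM in HCT116, whose tables overlapped.

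**Figure D1:**
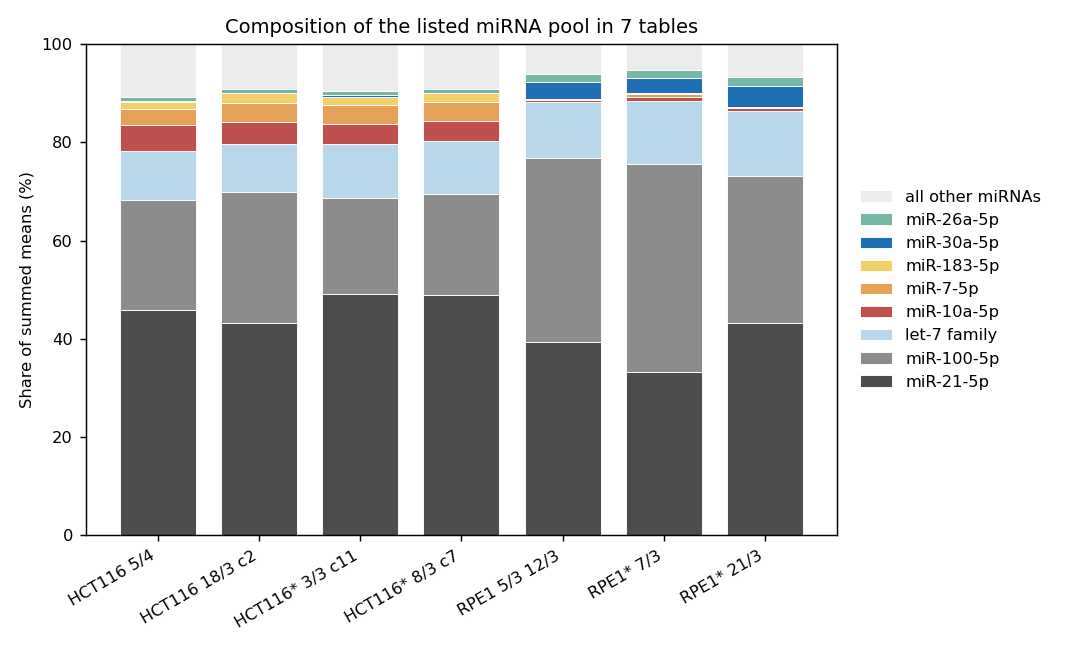
Share of the summed means of each table (%, vertical axis) taken by the leading miRNAs and the let-7 family, with 1 stacked bar for each of the 7 tables. miR-21-5p and miR-100-5p fill 68.3 to 69.9% of the HCT116 bars and 73.0 to 76.8% of the RPE1 bars, miR-10a-5p, miR-7-5p and miR-183-5p are wide bands in HCT116 and thin in RPE1, and miR-30a-5p is a wide band in RPE1.

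Of the 509 names, 205 were listed in all 7 tables, and 157 of these had a mean over tables of at least 10 RPM and were judged. Between the cell types, 97 of the 157 (61.8%) did not overlap, 75 of them higher in HCT116 and 22 higher in RPE1. With a ratio of geometric means of at least 4 as well, 42 miRNAs (26.8%) were called higher in HCT116 and 12 (7.64%) higher in RPE1, 54 (34.4%) in all. This split depends on the scaling, because the median judged miRNA was itself 0.99 higher in HCT116 on the log2 scale of RPM. The calls were 33 and 15 with miR-21-5p and miR-100-5p left out of the total, 32 and 15 on the deposited means without rescaling and 19 and 21 under a median of ratios, so that HCT116 had 77.8, 68.8, 68.1 and 47.5% of the calls, respectively. Under all of these scalings, 19 miRNAs (12.1%) were called higher in HCT116 and 12 (7.64%) higher in RPE1. Of the calls, 19 of the 42 had a geometric mean below 10 RPM in RPE1 and 9 of the 12 had one below 10 RPM in HCT116, and these passed the 10 RPM limit through the cell type in which they were high, which fixed their direction. The 42 miRNAs called higher in HCT116 carried 11.6 to 12.8% of the HCT116 pools and 0.853 to 1.75% of the RPE1 pools, and the 12 called higher in RPE1 carried 0.0203 to 0.387% and 3.45 to 4.56%.

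**Figure D2:**
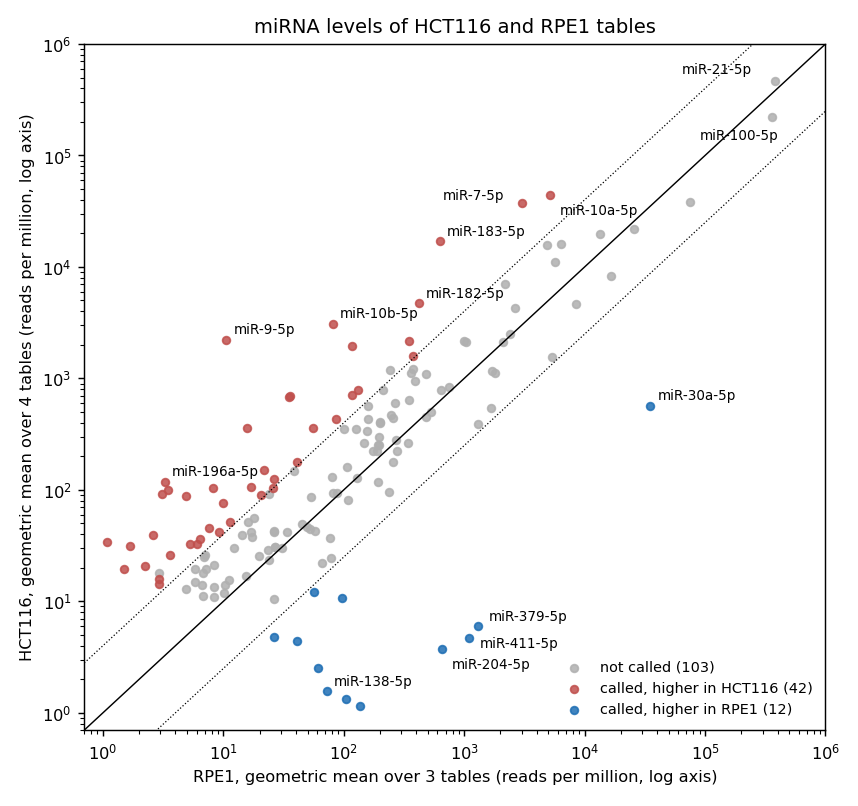
Geometric mean level of the 157 judged miRNAs in RPE1 (horizontal) and HCT116 (vertical), both in RPM on log axes, with the line of equal levels and dotted lines at 4-fold. The 42 miRNAs called higher in HCT116 (red) include abundant ones such as miR-10a-5p and miR-7-5p, and of the 12 called higher in RPE1 (blue) miR-30a-5p stands far above the others in both.

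The largest ratio towards HCT116 was that of miR-9-5p, a miRNA known from neural progenitors. It stood at 2663, 2247, 1778 and 2321 RPM in the HCT116 tables and at 14.2, 9.26 and 8.96 RPM in the RPE1 tables. The lowest HCT116 table was thus far above the highest RPE1 table, and the geometric means were 211-fold apart, a log2 difference 6.73 above that of the median miRNA. miR-10b-5p, encoded in an intron of HOXD3, followed at 2352, 3262, 3718 and 3257 RPM against 180, 70.7 and 41.7 RPM, a 38.3-fold ratio. miR-196a-5p, from introns of HOXB7 and HOXC6, was 36.3-fold higher in HCT116 at 94.5 to 134 RPM against 1.16 to 7.82 RPM, although the RPE1 tables differed 6.75-fold and leaving out RPE1 5/3 12/3 or RPE1* 21/3 took the log2 difference from 5.18 to 4.44 or 5.82. miR-126-5p, which lies in an intron of the endothelial gene EGFL7, was 30.1-fold higher at 63.6 to 171 RPM against 1.88 to 6.45 RPM.

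The 3 miRNAs of the miR-183 cluster, which is expressed in sensory and other epithelia, were each called higher in HCT116. miR-183-5p stood at 14967, 20921, 15951 and 17086 RPM against 375, 850 and 770 RPM (27.3-fold), miR-96-5p at 3475, 1937, 1540 and 1398 RPM against 100.1, 128 and 124 RPM (16.7-fold), and miR-182-5p at 9028, 4373, 3698 and 3469 RPM against 326, 402 and 558 RPM (11.3-fold). HCT116 5/4 had the highest level of miR-96-5p and miR-182-5p but the lowest of miR-183-5p. The hairpins lie within 5 kb on the minus strand of chromosome 7 (GRCh37), MIR183 at chr7:129414745-129414854, MIR96 at chr7:129414532-129414609 and MIR182 at chr7:129410223-129410332, and none lies in a gene on the same strand.

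The most abundant miRNAs called higher in HCT116 were miR-10a-5p and miR-7-5p. miR-10a-5p stood at 53297, 43667, 41430 and 39366 RPM against 2979, 7717 and 6105 RPM, an 8.49-fold ratio. miR-7-5p, 1 of whose hairpins lies in HNRNPK, stood at 32417, 39024, 38293 and 40109 RPM against 3171, 6578 and 1310 RPM, a 12.4-fold ratio, and the RPE1 tables themselves differed 5.02-fold, so that the log2 difference of 3.63 became 3.03 without RPE1* 21/3. miR-378c, miR-378i and miR-378d were 19.7, 19.5 and 12.5-fold higher in HCT116. These 3 resemble each other and the 3p arm of miR-378a, which was not analysed here, so that reads may have been split among them. The 5p arm of that hairpin, miR-378a-5p, was also called, with 37.2 to 40.8 RPM against 2.46 to 2.73 RPM. Like miR-378d, whose geometric mean was 8.29 RPM in RPE1, it was judged through its HCT116 level, so that nothing is read from either call. miR-135b-5p was 23.2-fold higher at 257 to 826 RPM against 9.32 to 20.2 RPM.

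The largest ratios towards RPE1 were those of 14q32 miRNAs. miR-411-5p stood at 4.83, 3.45, 5.01 and 5.996 RPM in the HCT116 tables and at 1117, 1032 and 1147 RPM in the RPE1 tables, a 232-fold ratio. miR-379-5p stood at 4.84, 4.77, 7.57 and 7.49 RPM against 1175, 1503 and 1237 RPM, a 216-fold ratio. Their hairpins lie in introns of the lncRNA MEG8, MIR379 at chr14:101488366-101488491 and MIR411 at chr14:101489662-101489757 on the plus strand (GRCh37). Their mature sequences are alike at 14 of 21 positions but their seeds differ. miR-369-5p (118-fold) and miR-382-5p (79.0-fold) of the same locus were also called. In all 4 the spread among RPE1 tables was below 1.36-fold.

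miR-204-5p, encoded in an intron of TRPM3 and known from the pigment epithelium, stood at 3.302, 3.50, 4.501 and 3.78 RPM in HCT116 and at 380, 1450 and 518 RPM in RPE1, a 176-fold ratio with RPE1* 7/3 apart from the other RPE1 tables. miR-30a-5p was the most abundant miRNA among the calls towards RPE1, with 34324, 30002 and 41959 RPM there. In the HCT116 tables it stood at 541, 336, 3796 and 149 RPM. The ratio was 61.9-fold, with the level in HCT116* 3/3 c11 far above those of the other tables on the same control. The log2 difference of -5.95 became -6.87 without HCT116* 3/3 c11 and -5.31 without HCT116* 8/3 c7. miR-30e-5p, which differs from it in 1 base, was not called and ranged from 3568 to 6346 RPM in HCT116 and from 1628 to 3719 RPM in RPE1. miR-138-5p stood at 142, 28.3 and 93.2 RPM in RPE1 and at 0.758, 0.578, 23.5 and 0.584 RPM in HCT116, where HCT116* 3/3 c11 again stood apart. The log2 difference of miR-138-5p, -5.52, became -6.82 without that table and -6.20 without RPE1* 7/3. One of its hairpins, MIR138-1, lies on chromosome 3, the chromosome gained in that line, and the other, MIR138-2, on chromosome 16. The hairpin of miR-30a-5p lies on chromosome 6. A link of the miR-138-5p or miR-30a-5p level to the gained chromosome was not tested. miR-335-5p, from an intron of the imprinted gene MEST, was 24.5-fold higher in RPE1 at 17.1 to 151 RPM against 1.64 to 6.51 RPM. Its log2 difference of -4.62 became -5.54 without RPE1* 7/3 and -3.97 without RPE1* 21/3.

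**Figure D3:**
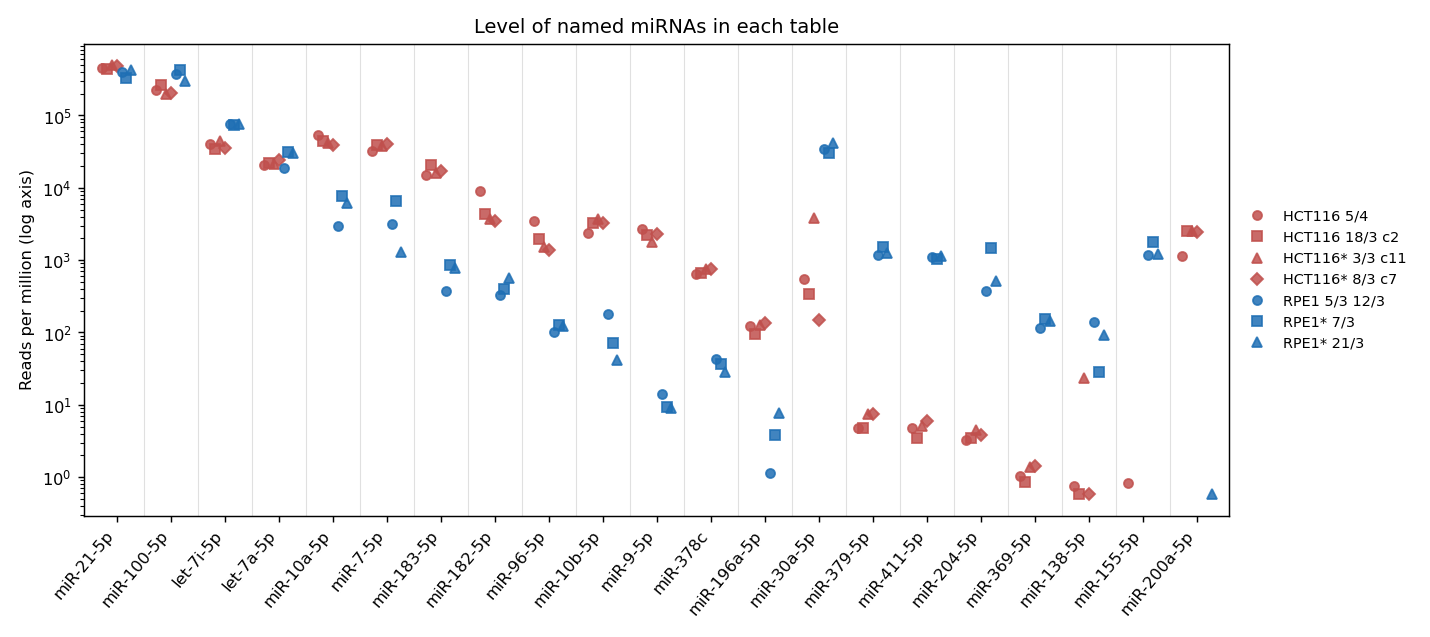
Level of 21 named miRNAs (RPM, log axis), with 1 point for each table in which the miRNA is listed, red for the 4 HCT116 tables and blue for the 3 RPE1 tables. The points of the cell types are apart from miR-10a-5p to miR-200a-5p, HCT116* 3/3 c11 stands above the other HCT116 tables for miR-30a-5p and miR-138-5p, and miR-155-5p has a point in only 1 HCT116 table.

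The labels of both cell types were checked against marker lists. Of the epithelial list (the miR-200, miR-203, miR-205 and miR-183 groups), 8 of 11 names were listed in at least 1 table, all 3 that could be judged, those of the miR-183 cluster, were called higher in HCT116 beside 26.8% of all judged miRNAs, and the summed level was 23874 to 29978 RPM in HCT116 against 802 to 1452 RPM in RPE1. miR-200a-5p stood at 1138, 2544, 2502 and 2477 RPM in HCT116, was listed in neither RPE1* 7/3 nor RPE1 5/3 12/3 and stood at 0.584 RPM in RPE1* 21/3. The intestinal list (miR-192, miR-194 and miR-215, with miR-375 not listed) summed to 303 to 749 RPM in HCT116 and 192 to 251 RPM in RPE1. Neither of its 2 judged members was called, and its direction turned under a median of ratios, with a log2 difference of -0.07 against 0.99 on the RPM scale. miR-194-5p overlapped over all tables. Within the paired and the other set of tables described below, it was 6.35 and 4.56-fold higher in HCT116, and miR-192-5p was 3.20 and 1.45-fold higher. Of the pigment epithelial list, miR-204-5p was called higher in RPE1, beside 7.64% of all judged miRNAs. It was below 10 RPM in every HCT116 table and was judged through its RPE1 level, so that nothing is read from the call itself. miR-211-5p was at or below 1.98 RPM in the 3 tables that listed it.

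Markers of other cell types were mostly low, except the mesenchymal and neuronal lists in HCT116, whose sums lay above that of its intestinal list. Since most 3p arms were not analysed here, a marker that was low or not listed is not shown to be absent. No muscle marker of 6 was listed, the liver marker miR-122-5p stayed at or below 3.29 RPM, and the pancreatic list summed to at most 0.904 RPM in HCT116 and 28.6 RPM in RPE1. The pluripotency list had 1 of 9 names listed, miR-302a-5p, at 0.721 to 15.6 RPM in HCT116 and 0.977 to 3.16 RPM in RPE1. The blood list summed to 29.1 to 48.2 RPM in HCT116 and 1.12 to 4.02 RPM in RPE1, where miR-142-5p was not listed in any RPE1 table and stood at 38.6 RPM in HCT116 5/4 against 1.90 to 3.79 RPM in the other HCT116 tables. The mesenchymal list (2657 to 3885 RPM against 79.7 to 276 RPM) was led by miR-10b-5p. Its 2 judged members, miR-10b-5p and miR-145-5p, were both called higher in HCT116, beside 26.8% of all judged miRNAs. miR-145-5p was not called under every scaling. Its log2 difference of 2.11 became 0.93 without RPE1* 7/3 and 2.75 without RPE1* 21/3. The neuronal list (1782 to 2664 RPM against 12.7 to 16.4 RPM) was led by miR-9-5p, and the endothelial list held miR-126-5p alone. Any part of other cells in these levels was not tested.

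Of the HOX cluster list, 3 of 3 judged miRNAs were called higher in HCT116, beside 26.8% of all judged miRNAs, although miR-196a-5p was judged through its HCT116 level alone, and the sum was 42884 to 56086 RPM in HCT116 and 3160 to 7829 RPM in RPE1. miR-196b-5p, which lies in an exon of HOXA9, could not be judged, since it was at 126 to 312 RPM in all HCT116 tables but listed in RPE1* 7/3 alone, at 37.0 RPM.

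Of the 14q32 list, 29 of 49 stems were listed, 25 to 30 names in each RPE1 table and 4 to 9 in each HCT116 table. The sum was 4022 to 5114 RPM in RPE1 and 11.6 to 20.0 RPM in HCT116, a 305-fold ratio of geometric means. The 4 judged members were called higher in RPE1, beside 7.64% of all judged miRNAs, but each was below 10 RPM in every HCT116 table and was judged through its RPE1 level, so that nothing is read from this count. Another 16 names were listed in every RPE1 table and no HCT116 table. miR-493-5p (668 to 1166 RPM in RPE1) and miR-134 (284 to 548 RPM) were listed in some HCT116 tables at no more than 1.26 and 0.885 RPM. The Xq26 list (miR-424, miR-503, miR-450a, miR-450b and miR-542) sits on the X chromosome beside MIR503HG. Its 3 judged members were all called higher in RPE1, beside 7.64% of all judged miRNAs. The ratios were 9.19-fold for miR-450b-5p, 8.89-fold for miR-450a-5p and 5.56-fold for miR-503-5p. miR-450b-5p and miR-503-5p were judged through their RPE1 level, so that nothing is read from this count either. Within the paired set of tables described below, miR-450a-5p (3.49-fold) and miR-503-5p (3.63-fold) were under the 4-fold limit and miR-450b-5p was 4.38-fold higher in RPE1. HCT116 5/4 had the highest HCT116 level of each of the 3.

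None of the 9 judged let-7 members was called on the RPM scale, beside 34.4% of all judged miRNAs. Their sum was 98345 to 108714 RPM in HCT116 and 114307 to 133675 RPM in RPE1. Its log2 difference of HCT116 minus RPE1 was -0.28 on the RPM scale and -1.35 under a median of ratios, without overlap in either. The members differed in opposite ways. let-7i-5p was 1.95-fold higher in RPE1, whereas let-7g-5p was 2.52-fold higher in HCT116 at 14278 to 17774 RPM against 5568 to 7807 RPM, and let-7a-5p overlapped. Under a median of ratios the log2 difference of let-7i-5p went from -0.96 to -2.03, past the 4-fold limit. The list of miR-99, miR-100 and miR-125 members had no call among 5 judged on the RPM scale, beside the same 34.4%. Its sum of 215291 to 284082 RPM in HCT116 and 318896 to 437771 RPM in RPE1 was mostly miR-100-5p. The log2 difference of this sum was -0.67 on the RPM scale and -1.73 under a median of ratios. Within the list miR-99a-5p was 3.08-fold higher in RPE1 on the RPM scale (log2 -1.62, and -2.69 under a median of ratios). In the paired and the other set of tables it was 5.15 and 3.59-fold higher in RPE1. miR-99b-5p was 1.93-fold higher in HCT116 on the RPM scale (log2 0.95, and -0.12 under a median of ratios). The miR-17-92 list, known for its link to proliferation, had no call among 6 judged, again beside 34.4%, and its sum of 3105 to 7453 RPM in HCT116 against 1070 to 2943 RPM in RPE1 overlapped under each of the 3 other scalings. On the RPM scale, miR-17-5p, miR-20a-5p, miR-93-5p and miR-106b-5p were 2.81 to 4.63-fold higher in HCT116 within the paired set. Within the other set they were 2.92 to 3.78-fold higher. miR-221-5p and miR-222-5p overlapped between the cell types.

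In the inflammation list, miR-146b-5p was at 480 to 800 RPM in HCT116 and 310 to 421 RPM in RPE1 and was not called. miR-155-5p, processed from the transcript of its own host gene and known from immune activation, stood at 1161, 1809 and 1229 RPM in the RPE1 tables and was listed in only 1 HCT116 table, HCT116 5/4, at 0.837 RPM. Of miRNAs often used as references for scaling, miR-16-5p ranged 4.499-fold within HCT116 and 3.86-fold within RPE1, and miR-191-5p was 3.24-fold higher in HCT116 (6378 to 9225 RPM against 1652 to 2835 RPM). miR-93-5p was 2.40-fold higher in HCT116 on the RPM scale and was not called. miR-423-5p overlapped, at 358 to 763 RPM in HCT116 and 166 to 526 RPM in RPE1. No member of the placental C19MC list was listed in any table.

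**Figure D4:**
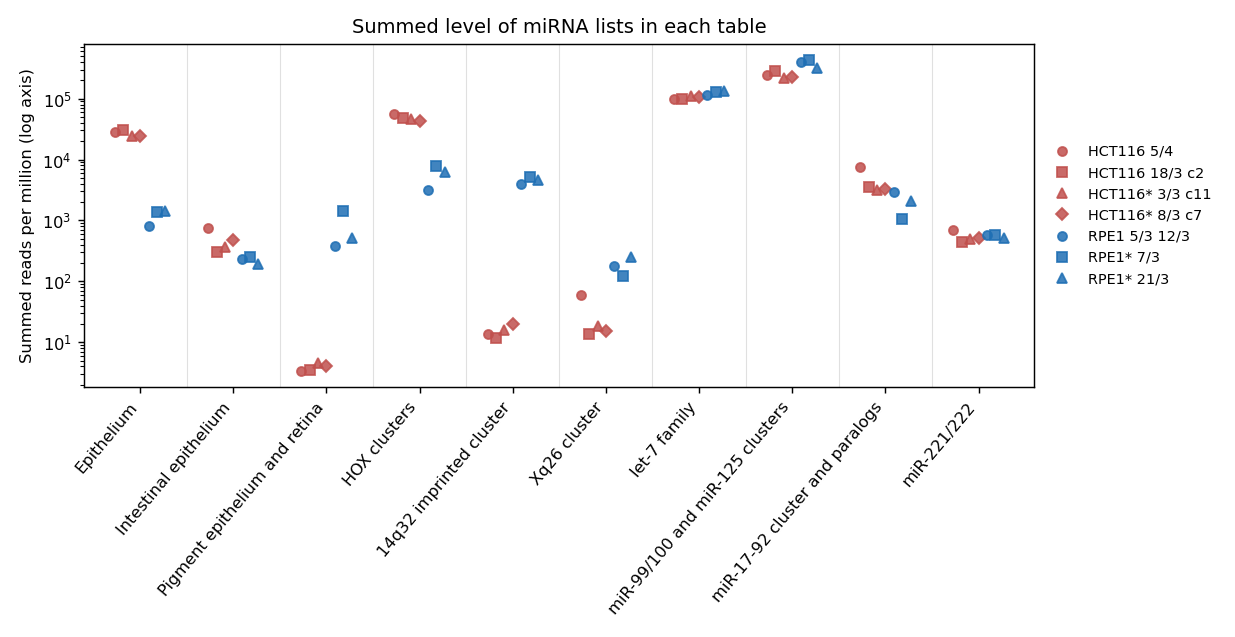
Summed level of 10 miRNA lists (RPM, log axis), with 1 point for each table, red for HCT116 and blue for RPE1. The epithelial and HOX sums are higher in all HCT116 tables, and the pigment epithelial, 14q32 and Xq26 sums are higher in all RPE1 tables. On this RPM scale the let-7 sums lie close, at 98345 to 108714 RPM and 114307 to 133675 RPM.

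Summed over miRNAs with the same seed, 104 families could be judged, and 28 (26.9%) were called higher in HCT116 and 12 (11.5%) higher in RPE1. The 3 largest families, AGCUUAU of miR-21-5p, ACCCGUA of miR-100-5p and GAGGUAG of let-7, were the same in both cell types and none was called. The GUAAACA family of miR-30a-5p, miR-30e-5p and miR-30c-5p was 6.08-fold higher in RPE1 at 39664 RPM against 6519 RPM, but these totals leave out other miR-30 names. The 5 names miR-30a-5p to miR-30e-5p, summed after the levels had been seen, stood at 21174 to 26137 RPM in HCT116 and 39392 to 53168 RPM in RPE1, a 1.96-fold ratio below the 4-fold limit, with miR-30d-5p leading in HCT116 at 15817 RPM. The UCCCUUU family of miR-204-5p and miR-211-5p (172-fold) followed miR-204-5p. The seeds ACCCUGU of miR-10a-5p and GGAAGAC of miR-7-5p had 1 matched member each and followed these 3 in HCT116. The family totals cover only names with a sequence match, so miR-10b-5p, miR-30b-5p and miR-30d-5p are not in them. By first base, miRNAs that start with U made up 68.7 to 75.5% of the matched HCT116 pool and 55.1 to 66.9% of the matched RPE1 pool, and those that start with A made up 21.6 to 28.7% and 31.99 to 43.8%, where miR-21-5p starts with U and miR-100-5p with A.

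Tables of the same cell type were more alike than tables of different cell types. Over the 205 miRNAs listed in all tables, where 3 HCT116 tables share control libraries, Pearson's correlation of log2 levels was 0.953 to 0.997 among HCT116 tables, 0.957 to 0.990 among RPE1 tables and 0.803 to 0.858 between cell types. At least 4-fold differences numbered 0 to 18 and 2 to 16 of the 205 within the cell types and 56 to 89 between them. The highest correlation was that of HCT116 18/3 c2 with HCT116* 8/3 c7, 0.997, and these share their control libraries. Next was that of RPE1 5/3 12/3 with RPE1* 21/3, 0.990, whose controls differ.

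Within each cell type, tables stood apart along a shared line. HCT116 5/4 differed from the other HCT116 tables, and RPE1* 21/3 and RPE1 5/3 12/3 differed from RPE1* 7/3. These 3 are the tables whose comparisons, by the methods of the study, included replicate pairing to account for sequencing batches, so that batch and cell line cannot be told apart here. The log2 ratio of HCT116 5/4 to the mean of the other HCT116 tables and the log2 ratio of the mean of both these RPE1 tables to RPE1* 7/3, which have no table in common, had a Pearson's r of 0.73 and a Spearman's rho of 0.75 over the 157 judged miRNAs. This is a correlation across miRNAs, which are not independent replicates. Of the 157, 19 were at least 2-fold higher in both ratios, among them miR-16-5p, miR-15a-5p, miR-15b-5p, miR-17-5p, miR-20a-5p, miR-106b-5p, miR-26b-5p and miR-31-5p, 13 were at least 2-fold lower in both, among them miR-574-5p, miR-320b and miR-193a-5p, and miR-138-5p alone was at least 2-fold apart in both in opposite directions. miR-16-5p, which shares the AGCAGCA seed of a family known to restrain the cell cycle, stood at 782 RPM in HCT116 5/4 and 174 to 184 RPM in the other HCT116 tables, and at 429 and 597 RPM in RPE1* 21/3 and RPE1 5/3 12/3 against 155 RPM in RPE1* 7/3. miR-574-5p went the other way, at 28.4 RPM against 194 to 253 RPM and at 59.4 and 45.9 RPM against 189 RPM.

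The 2 sets of tables also differed by base composition. Among the 131 judged miRNAs with a sequence, GC content had an r of -0.42 with the first ratio and -0.32 with the second, and of 0.04 with the difference between cell types. The 28 miRNAs with at most 40% GC had median log2 ratios of 0.51 and 0.80, and the 41 with more than 50% GC had -0.53 and -0.28. The part of GC content in these levels was not tested. Compared within each set of tables, all 54 calls kept their direction in both, which the rule of no overlap had fixed in advance. Of these calls, 41 were at least 4-fold apart in both. HCT116 5/4 is the only HCT116 table of the paired set and RPE1* 7/3 the only RPE1 table of the other. Ratios over all tables therefore mix set with cell type. Among miRNAs not called, miR-16-5p was 1.31-fold higher in RPE1 over all tables but 1.55 and 1.17-fold higher in HCT116 within the sets. For miR-26b-5p it was 1.08-fold against 1.55 and 1.34-fold. For several of the calls named above, the ratio within at least 1 set differed by over 1.5 times from the ratio over all tables. Within the paired and the other set, it was 12.5 and 5.37 for miR-10a-5p, 15.9 and 5.95 for miR-7-5p, 31.2 and 12.6 for miR-96-5p, 21.2 and 9.52 for miR-182-5p, 41.0 and 29.4 for miR-135b-5p and 2.83 and 19.6 for miR-145-5p, as HCT116 over RPE1. As RPE1 over HCT116, it was 134 and 371 for miR-204-5p, 148 and 74.1 for miR-382-5p, 152 and 14.2 for miR-138-5p and 17.9 and 9.37 for miR-335-5p. miR-145-5p thus fell under the 4-fold limit in the paired set. miR-9-5p had a log2 difference of 7.88 within the paired set and 7.83 within the other, miR-411-5p of -7.87 and -7.78, miR-183-5p of 4.80 and 4.39, and miR-30a-5p of -6.13 and -5.70. The choice of these sets was made after the levels had been seen.

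**Figure D5:**
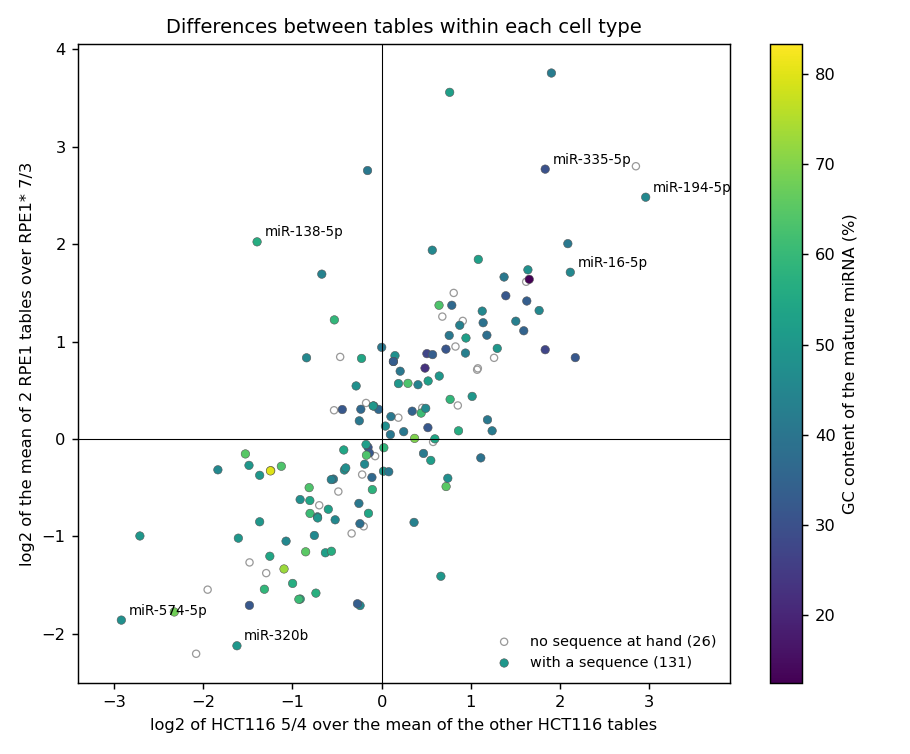
Log2 ratio of HCT116 5/4 to the mean of the other HCT116 tables (horizontal) and of the mean of RPE1* 21/3 and RPE1 5/3 12/3 to RPE1* 7/3 (vertical) for 157 miRNAs, coloured by GC content (%) for the 131 with a sequence and open for the other 26. The points lie along a rising line with an r of 0.73, with miR-194-5p and miR-16-5p at its upper end, miR-574-5p at its lower end and miR-138-5p off it.

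A miRNA that is not listed in a table has no value there, so that names listed on 1 side only give no ratio. There were 20 names listed in all HCT116 tables and no RPE1 table, led by miR-148a-5p (154 RPM), miR-141-5p (99.9 RPM), miR-200b-5p (62.2 RPM), miR-199b-5p (26.5 RPM) and miR-200c-5p (14.9 RPM), of which miR-141, miR-200b and miR-200c are 5p arms of the epithelial miR-200 family. There were 27 names listed in all RPE1 tables and no HCT116 table, led by miR-127-5p (121 RPM), miR-2682-5p (109 RPM), miR-708-5p (107 RPM), miR-136-5p (98.9 RPM) and miR-299-3p (47.7 RPM), of which miR-127, miR-136 and miR-299 belong to 14q32. miR-708-5p lies in an intron of TENM4.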

How the data were processed

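Per the methods of the study, the authors extracted total RNA with small RNAs, prepared TruSeq small RNA libraries, trimmed reads and removed adapters with cutadapt where needed, mapped to hg19, and obtained counts of the mature miRNAs in miRBase from mirdeep2. The authors ran DESeq2 (version not given in the sources used here) on the counts of each line with its control, and added replicate pairing for RPE1 5/3 12/3 as well as RPE1* 21/3 and HCT116 5/4. The deposited mean used here is a signal, the size-factor normalised count averaged by the authors over the 6 libraries of a table. The other deposited columns hold the log2 fold change of line against control, its standard error, the test statistic, the p-value and the adjusted p-value, and were not used. Reads of near-identical miRNAs may be shared or split between them, and of a miRNA with several hairpins the locus is not known.

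Means were scaled to RPM within each table. A miRNA was judged when listed in all 7 tables with a mean of at least 10 RPM, and called apart when the cell types did not overlap and their geometric means differed at least 4-fold. Without values of single libraries the depth per library is unknown, no interval is given, and the number of tables limits the precision. Named miRNAs were the 10 most abundant of each cell type, the 10 largest ratios each way among calls of at least 100 RPM, up to 4 members of each list, the 5 most variable within a cell type, the 5 most abundant on 1 side only and members of the 5 largest seed families. miR-138-5p, miR-335-5p, miR-378a-5p, the sum of the miR-30 names and the members of the 2 shared sets of 19 and 13 were named after their values were seen. The members, lists and rules were chosen with earlier results of these data known. Alternatives were another total, a median of ratios, no rescaling, other limits, medians, averaging the tables on the shared control, leaving out each table, each set of tables alone, and the miR-30 names summed without regard to a sequence match. Hairpin positions are those of GENCODE 44 on GRCh37, the build hg19 of the mapping, and sequences those of RefSeq on GRCh38.p14. The tools were pandas 2.3.3 and numpy 2.4.6 for the values and matplotlib 3.10.9 for the plots, in Python 3.11.15.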

Additional observations from a re-analysis of the deposited data

Results flagged for a closer look

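Of the 71 named miRNAs with a level in all 4 HCT116 tables, 17 had 1 table whose gap to the nearest other was above Dixon's 95% critical value, and in all 17 it was HCT116 5/4, the only HCT116 table on its own control. It is also the only HCT116 table of the set with replicate pairing, so that control, batch and line cannot be told apart. Chance flags about 1 in 20 groups of independent samples. That share does not hold here, since the other 3 tables share control libraries and 5 of the 71 miRNAs, miR-16-5p and miR-574-5p among them, were named for their wide range in HCT116. HCT116 5/4 stood highest for miR-191-5p (9225 RPM), miR-125b-5p (9169 RPM), miR-30e-5p (6346 RPM), miR-93-5p (1540 RPM), miR-17-5p (1092 RPM), miR-135b-5p (826 RPM), miR-16-5p (782 RPM), miR-106b-5p (774 RPM), miR-194-5p (139 RPM), miR-450a-5p (33.3 RPM) and miR-450b-5p (11.4 RPM). It stood lowest for let-7b-5p (1468 RPM), miR-200a-5p (1138 RPM), miR-574-5p (28.4 RPM), miR-486-5p (9.56 RPM), miR-129-5p (0.811 RPM) and miR-146a-5p (0.626 RPM). The widest ranges were those of miR-574-5p (8.91-fold) and miR-194-5p (8.52-fold).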

How the results depend on the processing

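No paired analysis was possible because the tables hold no values of single libraries and no test was made. The 42 calls towards HCT116 and 12 towards RPE1 became 19 and 21 under a median of ratios, 17 and 4 at a mean of at least 100 RPM and 66 and 20 at a 2-fold limit, and the 42 became 20 at an 8-fold limit. Leaving out 1 table gave 39 to 46 calls towards HCT116 and 11 to 13 towards RPE1. The median correlation between cell types went from 0.83 to 0.62 at a mean of at least 100 RPM and to 0.79 as Spearman's rho. The paired set alone gave 35 and 16 calls and the other set 49 and 9, chosen after seeing the data. The other summary values moved by less than 1.5 times or 1 SD in all 46 remaining alternatives, and the median effective numbers stayed at 7.54 to 7.55 for HCT116 and 5.67 to 6.01 for RPE1 when 1 table was left out. No called named miRNA or seed family changed direction under the alternatives run. Where these only left out tables, averaged them or took medians, the rule of no overlap had fixed the direction in advance. It was open only under the other scalings and for the sum of the miR-30 names. Levels near 1 RPM rest on few normalised reads, as 1 normalised read is worth 0.0891 to 0.180 RPM.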
